A study of Homo sapiens with 15 samples.

Results

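The nuclear-encoded subunits of respiratory complex III and their electron acceptor, cytochrome c, were examined in PE/CA-PJ41 cells, a line derived from a human oral squamous cell carcinoma. The genes were UQCRC1, UQCRC2, UQCRFS1, UQCRB, UQCRQ, UQCRH, UQCR10, UQCR11, CYC1 and CYCS, and their probes were found on the array by the RefSeq record that each probe names. These 10 genes, of 19483 named genes on the array, had 16 of its 42405 probes for transcripts, and all 16 were among the 22311 probes bright enough to test. The cells labelled CYGB+ carried a stably integrated pCMV6-Neo plasmid with the human cytoglobin cDNA and came, per the study's methods, from 1 clone picked with a cloning ring under G418 sulfate. The control cells, labelled NCE, are given an empty vector by the labels, whereas the methods also call the control an un-transfected parent line. RNA was taken from untreated cells after 24 h in supplemented medium. NCE was measured on 9 arrays, 3 repeats of each of 3 biological replicates, and CYGB+ on 6 arrays, 2 repeats of each of 3. The labels do not say that biological replicates were separate cultures, so the p-values measure only the spread between these samples, which may be technical.

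Complex III sits in the inner mitochondrial membrane, takes electrons from ubiquinol through cytochrome b, the Rieske iron-sulfur protein and cytochrome c1, and passes them to cytochrome c while it moves protons across the membrane. Cytochrome b is encoded by mitochondrial DNA, and every other subunit by the nucleus. Cytochrome c carries the electrons on to complex IV, and when it leaves the mitochondrion it binds APAF1 and starts the caspase cascade of intrinsic apoptosis. The comparison of NCE with CYGB+ asks whether the transcripts of this step of the respiratory chain differ between cells with and without the cytoglobin transgene.

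The upstream sequence of 3 subunit genes is shown because they are the gene with the largest difference (UQCRQ), the gene with the probe that passed the test (UQCR10) and the gene that held both motifs searched (UQCR11). Each is the RefSeq promoter of build GRCh38.p14 from 250 bases before the transcription start to 10 bases after it, written 5′ to 3′ on the gene's own strand. They lie at chr5:132866392-132866651 on the plus strand, chr22:29767119-29767378 on the plus strand and chr19:1605453-1605712 on the minus strand. Capitals mark the matches to a motif of nuclear respiratory factor 1 (NRF-1), GCGCA and GCGC with any 1 base (N) between them, and to CCGGAAG, a motif of ETS family factors, on either strand.
UQCRQ: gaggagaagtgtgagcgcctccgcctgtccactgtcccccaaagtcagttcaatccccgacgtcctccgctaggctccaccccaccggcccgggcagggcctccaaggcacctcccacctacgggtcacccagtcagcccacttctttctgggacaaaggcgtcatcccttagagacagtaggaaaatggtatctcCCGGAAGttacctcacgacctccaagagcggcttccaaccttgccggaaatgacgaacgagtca
UQCR10: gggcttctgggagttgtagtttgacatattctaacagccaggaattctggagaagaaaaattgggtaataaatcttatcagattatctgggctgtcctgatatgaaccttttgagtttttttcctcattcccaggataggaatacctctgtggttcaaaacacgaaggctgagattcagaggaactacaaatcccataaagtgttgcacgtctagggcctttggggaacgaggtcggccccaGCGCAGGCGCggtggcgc
UQCR11: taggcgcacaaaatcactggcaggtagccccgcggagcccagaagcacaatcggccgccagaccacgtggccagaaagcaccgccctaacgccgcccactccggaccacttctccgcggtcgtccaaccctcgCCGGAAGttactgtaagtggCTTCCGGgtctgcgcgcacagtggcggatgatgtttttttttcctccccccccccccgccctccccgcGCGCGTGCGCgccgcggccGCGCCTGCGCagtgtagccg
Promoters of 8 of the 10 genes were searched, while UQCRB and CYC1 are only named here. The NRF-1 motif was found in 4 of the 8 (UQCRC1, UQCRFS1, UQCR10 and UQCR11), against 5.78% of 35116 promoters of the same length. The ETS motif was found in 3 of the 8 (UQCRH, UQCRQ and UQCR11), against 10.3% of all promoters, and no match of one motif overlapped a match of the other. These are matches of letters only.

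Before the results, the features of the arrays that touch them are given. Of the 9 NCE arrays, 8 lay on slide 1, and the remaining NCE array (replicate 1, repeat 3) lay on slide 2 with all 6 CYGB+ arrays. Group and slide can therefore be separated only through that 1 array, and each slide was 1 scan. Between 48.0% and 57.2% of probes were well above background on an array, and 2 arrays correlated less with the rest of their group than the others, CYGB+ replicate 1 repeat 1 (median r = 0.919) and NCE replicate 3 repeat 2 (median r = 0.967). These 2 are the arrays said below to stand apart, by a cut at a median r of 0.97. CYGB+ replicate 3 repeat 2 lay just above that cut (median r = 0.971). The probe for CYGB itself did not separate the groups: its normalised log2 intensity was 12.84, 13.14 and 12.96 in NCE replicates 1, 2 and 3 and 12.39, 13.47 and 13.01 in CYGB+, a difference of -0.02 ± 0.28 (SE), adjusted p = 0.97 by limma. The probe was well above background on all 15 arrays, those of NCE included, although the paper describes the parent line as not expressing cytoglobin. The reason for this signal in NCE was not tested. Whether this probe lies inside the transfected cDNA is not given in the sources used here, so the transgene did not check the labels. Every direction below is that of the samples labelled CYGB+ minus those labelled NCE. All 8 squamous epithelial marker genes (KRT5, KRT14, KRT6A, KRT17, TP63, CDH1, EPCAM and DSG3) were well above background on all 15 arrays and none passed the test, although 1 of the 6 fibroblast markers, COL1A2, fell by 2.54 on the log2 scale in CYGB+ (adjusted p = 0.00222 by limma). The summed fibroblast level was 8.54 to 9.07 on the log2 scale over the single NCE arrays and 6.77 to 7.54 over the CYGB+ arrays. The probes of LUM, PDGFRB and COL3A1 were above background on 0 arrays and those of DCN on 1. COL1A1, above background on 13 arrays, did not pass, with means of 5.57 in NCE and 5.81 in CYGB+ (difference 0.24, adjusted p = 0.736 by limma). Of the 4 leukocyte markers, CD14 alone was above background on all arrays, and the list's summed level was 8.67 to 9.57 in NCE and 8.21 to 9.41 in CYGB+. The part of these markers in the results below was not tested.

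Across the complex, most probes had a somewhat higher mean in CYGB+, and the difference exceeded the replicate spread after adjustment for 1 of them. That was a UQCR10 probe, 1.61-fold higher in CYGB+. UQCRQ followed at 1.79-fold and CYC1 at 1.55-fold, neither past the threshold of 0.05 on the adjusted p. UQCRB had the lowest difference, 0.753-fold, and the cytochrome c probes lay between 1.01-fold and 1.18-fold. Of the 16 probes, 1 (6.25%) was called, and over all probes 8.22% were called, 4.4% higher and 3.83% lower in CYGB+, so the share of called members was not above the background. The difference was above 0 for 13 of 16 member probes and for 49.8% of all probes, and its median was 0.23 on the log2 scale for members and -0.002 for all probes. An unadjusted p under 0.05 was reached by 3 members (18.8%) and by 26.9% of all probes. The 95% confidence interval of the difference held 0 for 13 of the 16.

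**Figure D1:**
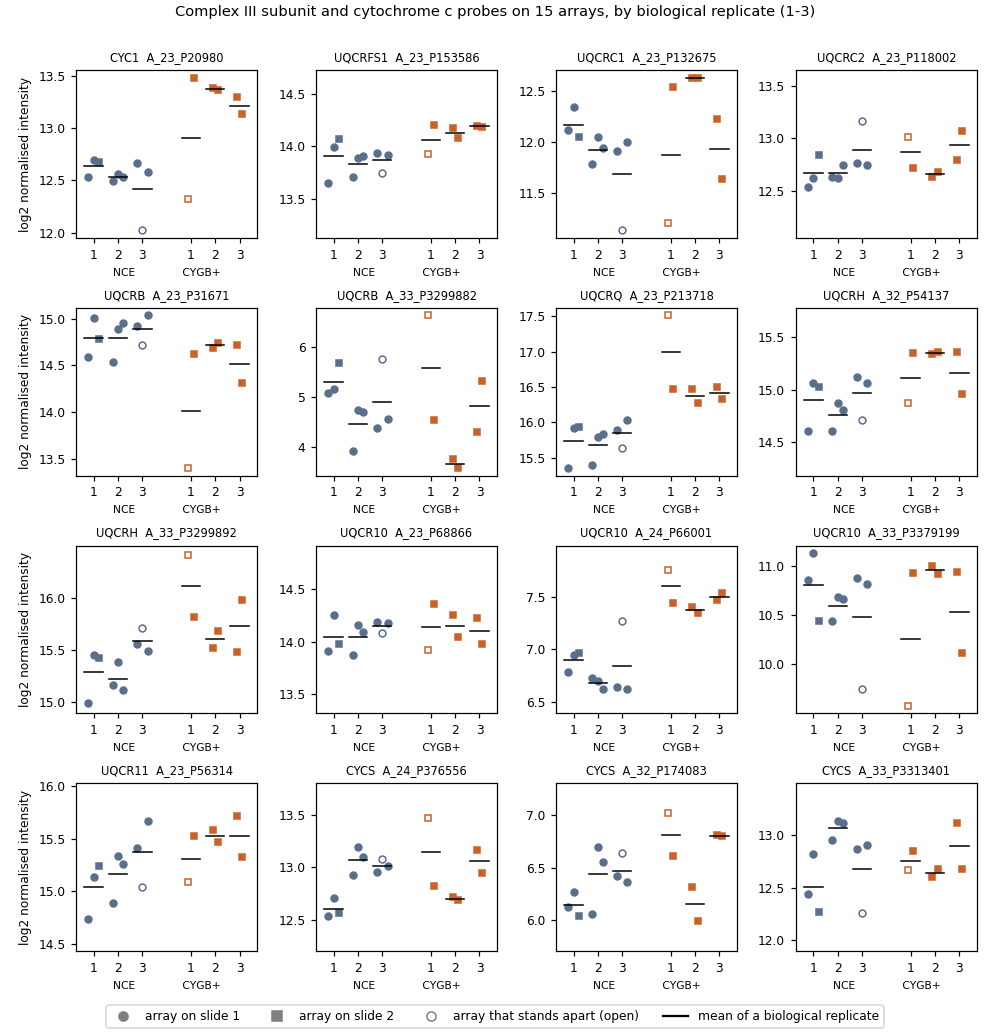
Normalised log2 intensity (y axis) of the 16 probes of complex III subunits and cytochrome c in NCE and CYGB+; points are single arrays (circles on slide 1, squares on slide 2, open symbols for the 2 arrays that stood apart), set out by biological replicate, and black lines are the means of a replicate's arrays. For UQCRQ and the UQCR10 probe A_24_P66001 every CYGB+ array lay above every NCE array, and for the other probes the arrays of the groups overlapped.

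Among the catalytic subunits, CYC1 (probe A_23_P20980, gene on chromosome 8), the heme-bearing cytochrome c1, had the largest difference. Its normalised log2 intensity was 12.63, 12.53 and 12.42 in NCE and 12.90, 13.37 and 13.21 in CYGB+, so that each CYGB+ replicate lay above each NCE replicate. The difference was 0.63 ± 0.18 (SE, n = 3 against 3; 95% confidence interval 0.22 to 1.05), with an adjusted p of 0.0714 in limma's fit over all probes. The arrays overlapped through CYGB+ replicate 1 repeat 1, at 12.32. CYC1 was called in 7 of 18 alternatives and not in the other 11. By limma its adjusted p was 0.0388 without CYGB+ replicate 1 (difference 0.76), but 0.134, 0.211 and 0.229 without NCE replicates 1, 2 and 3. Without CYGB+ replicates 2 and 3 it was 0.14 and 0.144. With all replicates kept it was 0.0421 with 75th percentile scaling, 0.0431 with normexp and 0.0494 over the probes above background on all arrays. It was also 0.0283 in the deposited table. It was 0.1 with no filter, 0.0752 with the replicate block, 0.0821 before dye normalization and 0.114 by the methods' t-test. UQCRFS1 (A_23_P153586, chromosome 19), the Rieske iron-sulfur protein, was at 13.91, 13.83 and 13.87 in NCE and at 14.06, 14.13 and 14.19 in CYGB+. Its replicates did not overlap either, but the difference of 0.26 ± 0.14 (SE) did not pass (adjusted p = 0.292), and with slide as a term it was 0.05.

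The core proteins UQCRC1 and UQCRC2, which face the matrix and resemble the mitochondrial processing peptidase, overlapped between the groups. UQCRC1 (A_23_P132675, chromosome 3) measured 12.17, 11.93 and 11.69 in NCE and 11.87, 12.63 and 11.93 in CYGB+. CYGB+ replicate 2 alone lay above the NCE replicates, and without it the difference went from 0.22 (adjusted p = 0.615) to -0.03. UQCRC2 (A_23_P118002, chromosome 16) was printed in 10 spots on each array, whose SD within an array was 0.0609 to 0.153 on the log2 scale. Its values of 12.67, 12.66 and 12.89 in NCE and 12.87, 12.65 and 12.93 in CYGB+ interleaved, and the difference was 0.08 ± 0.16 (SE), adjusted p = 0.801. The confidence interval of that difference, -0.30 to 0.46, bounds the UQCRC2 change at 0.811-fold to 1.37-fold.

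UQCRQ (A_23_P213718, chromosome 5), a small subunit bound close to cytochrome b, had the largest difference of all members. Its normalised log2 intensity was 15.74, 15.68 and 15.86 in NCE and 17.00, 16.38 and 16.41 in CYGB+. The groups did not overlap in replicates or in single arrays, with NCE arrays from 15.36 to 16.03 and CYGB+ arrays from 16.28 to 17.51. The NCE array on slide 2 read 15.94, near the upper end of NCE and still below each CYGB+ array of its own slide. The difference was 0.84 ± 0.21 (SE; 95% confidence interval 0.36 to 1.32), and its adjusted p of 0.0503 by limma lay just past the threshold. With the replicate number as a block the adjusted p was 0.0443, a call. UQCRQ was called in 4 of 18 alternatives and not in the other 14. Without NCE replicates 1, 2 and 3 its adjusted p by limma was 0.127, 0.176 and 0.137. Without CYGB+ replicates 1, 2 and 3 it was 0.0526, 0.0635 and 0.0781. It was 0.0867 with no filter, 0.0862 with normexp and 0.121 by the methods' t-test. CYGB+ replicate 1 repeat 1 gave the highest value, and with that array and NCE replicate 3 repeat 2 left out the difference was 0.63 (adjusted p = 0.0188).

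UQCRB (chromosome 8), another subunit next to the ubiquinone site, had lower means in CYGB+. Its bright probe A_23_P31671 measured 14.79, 14.79 and 14.89 in NCE and 14.02, 14.72 and 14.51 in CYGB+, all 3 CYGB+ replicates below all NCE replicates. The difference of -0.41 ± 0.21 (SE) did not pass (adjusted p = 0.254), and CYGB+ replicate 1 lay furthest down: without it the difference was -0.21. The second UQCRB probe, A_33_P3299882, which names another transcript record, was well above background on 9 of 15 arrays and ranged from 3.66 to 5.58 over the replicates. Its difference was -0.20 ± 0.47 (SE), adjusted p = 0.824.

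UQCRH, the hinge protein through which cytochrome c1 meets cytochrome c, was read by 2 probes of 1 transcript record (chromosome 1). Probe A_32_P54137 was at 14.90, 14.76 and 14.97 in NCE and at 15.11, 15.35 and 15.16 in CYGB+, a difference of 0.33 ± 0.16 (SE), adjusted p = 0.222. Probe A_33_P3299892 was at 15.29, 15.22 and 15.59 in NCE and at 16.11, 15.60 and 15.73 in CYGB+, a difference of 0.45 ± 0.20 (SE), adjusted p = 0.194. Both probes had higher CYGB+ replicates without overlap, although neither passed. UQCRH has a near-identical intronless copy, UQCRHL, and the position of the probes was not used here, so signal from the copy cannot be told apart.

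UQCR10 (chromosome 22), a small subunit beside cytochrome c1 and the Rieske protein, was read by 3 probes that gave unlike differences. Probe A_24_P66001 rose in CYGB+: it measured 6.90, 6.68 and 6.85 in NCE and 7.60, 7.38 and 7.51 in CYGB+, and every CYGB+ array (7.35 to 7.76) lay above every NCE array (6.62 to 7.27). The difference was 0.68 ± 0.16 (SE; 95% confidence interval 0.32 to 1.05), with adjusted p = 0.0405 by limma. With normexp background correction this difference was 0.29 (adjusted p = 0.0773), below the interval just given. That setting adds an offset of 50, which shrinks log2 differences of dim probes. How much of the drop came from the offset was not tested. The call was also lost when any 1 replicate was left out, with adjusted p of 0.0947, 0.167 and 0.138 without NCE replicates 1, 2 and 3 and of 0.0599, 0.0615 and 0.0935 without CYGB+ replicates 1, 2 and 3. Probe A_23_P68866, of the same transcript record, was at 14.05, 14.04 and 14.15 in NCE and at 14.14, 14.14 and 14.10 in CYGB+, a difference of 0.05 ± 0.14 (SE), adjusted p = 0.852. Probe A_33_P3379199, of another UQCR10 record, interleaved between the groups at 10.25 to 10.95, with a difference of -0.05 ± 0.22 (SE), adjusted p = 0.907. The rise of one UQCR10 probe was thus not shared by the others, and their differences were not tested against each other. UQCR11 (A_23_P56314, chromosome 19), the smallest subunit, was at 15.04, 15.16 and 15.37 in NCE and at 15.31, 15.53 and 15.52 in CYGB+. Here NCE replicate 3 lay above CYGB+ replicate 1, and the difference of 0.26 ± 0.17 (SE) did not pass (adjusted p = 0.355).

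CYCS, cytochrome c itself (chromosome 7), was read by 3 probes of 1 transcript record, and their groups overlapped. Probe A_24_P376556 measured 12.60, 13.07 and 13.02 in NCE and 13.15, 12.70 and 13.06 in CYGB+, a difference of 0.07 ± 0.20 (SE), adjusted p = 0.852. Probe A_33_P3313401 measured 12.51, 13.07 and 12.68 in NCE and 12.76, 12.64 and 12.90 in CYGB+, a difference of 0.01 ± 0.19 (SE), adjusted p = 0.974. In both, NCE replicate 1 was the lowest of the 6 samples. The dimmer probe A_32_P174083 ranged from 6.14 to 6.82, with a difference of 0.24 ± 0.23 (SE), adjusted p = 0.533. The confidence intervals of the 2 brighter CYCS probes reached from -0.40 to 0.55 and from -0.44 to 0.46, so that a rise of more than 1.46-fold or a fall below 0.739-fold lay outside both. That of the dimmer probe was wider upward, from -0.28 to 0.77, or up to 1.70-fold. These intervals leave out the slide: within slide 2 the difference of A_33_P3313401 was 0.49, above the upper end of its own interval. The NCE array on slide 2 is of replicate 1, so slide and replicate cannot be told apart in that difference. That array read 12.27 for A_33_P3313401, and the replicate 1 arrays on slide 1 averaged 12.63. For A_24_P376556 these values were 12.56 and 12.62, and for A_32_P174083 they were 6.04 and 6.20. CYCS has many processed copies in the genome, and their signal in these probes cannot be told apart here.

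Replicates did not overlap for 6 probes (37.5%) in the direction of higher CYGB+ and for 1 (6.25%) in the direction of lower, against 16.9% and 16.3% of all probes. Single arrays did not overlap for 2 probes (12.5%) with CYGB+ higher and for 0 with CYGB+ lower, against 5.52% and 5.25% of all probes. The distance from the difference to either end of its confidence interval had a median of 0.45 on the log2 scale over the members, which is the precision that this number of biological replicates gave. In fits that used the samples differently, 2 members were called with the replicate block (11.6% of all probes were), 3 with single arrays as units (21.5%) and 3 without the 2 arrays that stood apart (17.1%). In the latter 2 fits they were UQCRQ, UQCR10 A_24_P66001 and CYC1.

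Group and slide were nearly aligned, so differences fitted with a slide term were less certain. With slide as a fixed term over the 15 arrays, 14 of the 16 members kept the sign of their difference, 0 were called (1 at an unadjusted p under 0.05 in limma; 2.73% of all probes were called) and the median difference was 0.22. The median SE over the members was 0.310 with the term and 0.171 without it. UQCRQ was then at 0.62 (adjusted p = 0.580), UQCR10 A_24_P66001 at 0.55 (adjusted p = 0.337) and CYC1 at 0.52 (adjusted p = 0.661). Within slide 2, the 1 NCE array against the 3 CYGB+ replicates gave 0.65 for UQCRQ (adjusted p = 0.689), 0.52 for UQCR10 A_24_P66001 (adjusted p = 0.700) and 0.49 for CYC1 (adjusted p = 0.762), with 0 members called, 0 at an unadjusted p under 0.05 in limma, and 0.134% of all probes called. That test assumes that the lone NCE array varies like the CYGB+ replicates. For CYCS the within-slide differences of the 3 probes were 0.41, 0.55 and 0.49, and the NCE array on slide 2 was the lowest or next to lowest of the 9 NCE arrays for each of them. UQCRC2 and UQCR10 A_33_P3379199 changed sign, to -0.07 and 0.24 with the slide term. In limma's fit with the term, 0 of all probes had a slide effect past the adjusted threshold. At an unadjusted p under 0.05 there were 884 of all probes and 0 members. Group and slide cannot be told apart further than through the 1 shared slide.

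**Figure D2:**
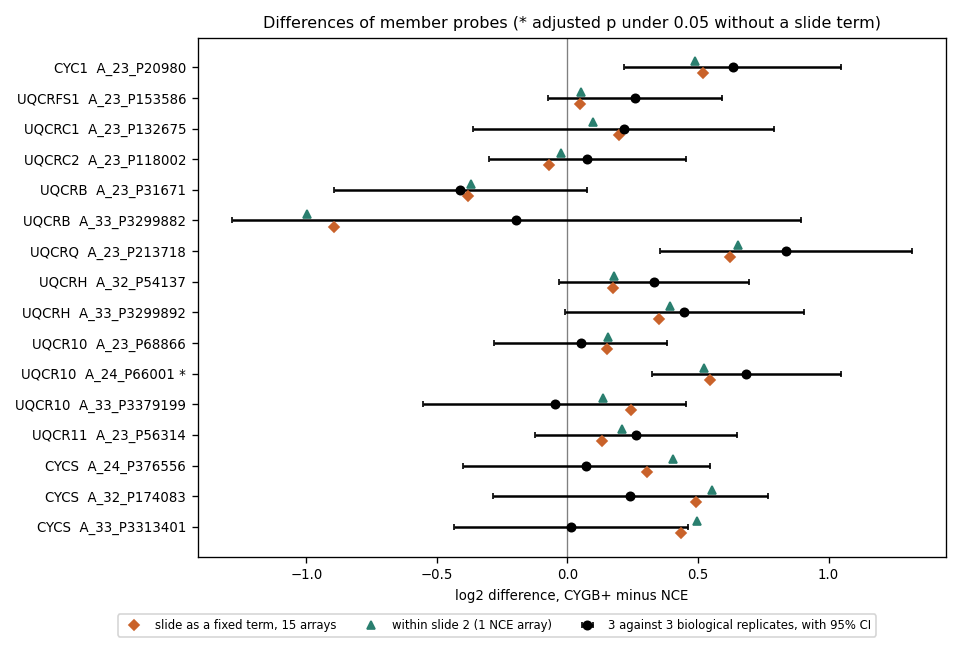
Difference of CYGB+ minus NCE (x axis, log2 scale) for each of the 16 probes: circles with bars give the difference of 3 against 3 biological replicates with its 95% confidence interval, diamonds the difference with slide as a fixed term and triangles the difference within slide 2. The intervals of CYC1, UQCRQ and UQCR10 A_24_P66001 lie above 0, and the diamonds and triangles of these 3 probes lie closer to 0 than their circles.

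The assembly factors of complex III moved in unlike directions. Of 10 probes for 8 genes, 1 rose and 1 fell (20.0% called), with a median difference of -0.05. UQCC5, a small protein needed for making cytochrome b, rose by 1.11 ± 0.22 (SE), adjusted p = 0.0260, with NCE arrays from 9.63 to 10.87 and CYGB+ arrays from 11.25 to 11.64. Its difference was 0.90 with the slide term (adjusted p = 0.171), 0.87 within slide 2 (adjusted p = 0.456), and its call was lost when any 1 replicate was left out (adjusted p = 0.0521 to 0.0849). UQCC1, which escorts newly made cytochrome b, fell by 0.68 at probe A_24_P65910 (adjusted p = 0.0450), while its probes A_23_P210948 and A_33_P3309064 had differences of -0.53 (adjusted p = 0.132) and -0.24 (adjusted p = 0.439). The UQCC1 call was lost with the replicate block (adjusted p = 0.0556), with the slide term (-0.56, adjusted p = 0.286) and when any 1 replicate was left out (adjusted p = 0.0567 to 0.153). UQCC3, which acts after UQCC1 and UQCC2 on the same protein, had a difference of 0.58 (adjusted p = 0.0569), and UQCC2 one of -0.09 (adjusted p = 0.770). BCS1L, the translocase that inserts the Rieske protein UQCRFS1, was at 0.13 (adjusted p = 0.604) and LYRM7, its chaperone, at 0.32 (adjusted p = 0.330). TTC19, which clears fragments of the Rieske protein, was at -0.43 (adjusted p = 0.347), and UQCC6 at -0.01 (adjusted p = 0.986). UQCC4, also on the list, was not matched to a probe.

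The genes that make or reduce cytochrome c gave 0 calls in 4 tested probes, with 0 at an unadjusted p under 0.05 and a median of 0.05. HCCS, which attaches heme to cytochromes c and c1, was at 0.27 (adjusted p = 0.436). CHCHD4 and GFER, the disulfide relay that hands electrons to cytochrome c, were at 0.03 (adjusted p = 0.940) and 0.06 (adjusted p = 0.842). SUOX, sulfite oxidase, was at -0.02 (adjusted p = 0.958), and LDHD, D-lactate dehydrogenase, was above background on 0 arrays and not tested. In the apoptosome list, 9 probes gave 0 higher and 1 lower with a median of -0.05. The one that fell was APAF1, the adaptor that binds released cytochrome c, from a mean of 5.99 in NCE to 5.02 in CYGB+ (difference -0.97 ± 0.15 (SE), adjusted p = 0.0133), and every CYGB+ array lay below every NCE array. With normexp, which adds an offset of 50, the APAF1 difference was -0.24 (adjusted p = 0.114), and the part of the offset in this was not tested. It was -1.10 with the slide term (adjusted p = 0.131) and -1.12 within slide 2. Without NCE replicates 1, 2 and 3 the adjusted p was 0.0564, 0.0545 and 0.0677.

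The neighbouring complexes are given for scale. Complex I subunits had 3 probes higher and 1 lower of 42 (9.52%; median 0.23), with NDUFV2 at 0.98, NDUFA2 at 0.96, NDUFB1 at 0.84 and NDUFV3 at -0.66. Complex IV subunits had 1 higher of 13 (7.69%; median 0.25), COX7C, which rose by 1.28 ± 0.20 (SE), adjusted p = 0.0125. With the slide term COX7C was at 0.76 (adjusted p = 0.242) and within slide 2 at 0.74 (adjusted p = 0.597), and without NCE replicates 2 and 3 its adjusted p was 0.0627 and 0.0552. ATP synthase subunits had 1 higher and 1 lower of 18 (11.1%; median 0.14), ATP5MJ at 0.76 and ATP5PF at -0.78. Complex II gave 0 calls of 11 probes (3 at an unadjusted p under 0.05 in limma; median -0.10), ubiquinone synthesis 0 of 17 (3 at an unadjusted p under 0.05; median 0.05), and the other dehydrogenases that reduce ubiquinone 0 of 5 (3 at an unadjusted p under 0.05; median -0.36). The supercomplex factors gave 0 of 4 (2 at an unadjusted p under 0.05; median 0.33). The mitochondrial processing peptidase, the relative of the core proteins, had 1 probe higher of 2 (median 0.61). PMPCB was at 0.64 (adjusted p = 0.0497) but above background on 8 of 15 arrays. It was at 0.09 under normexp (adjusted p = 0.530), where the part of the offset was not tested, and at 0.26 with the slide term (adjusted p = 0.949). With the replicate block its adjusted p was 0.0545. Over all 11 lists, 7 probes were higher and 4 lower of 135 (8.15%), near the 8.22% of all probes, with a median of 0.12. Of these 11 probes, those of NDUFV2 (adjusted p = 0.0151), NDUFB1 (0.0427) and ATP5PF (0.0409) passed with the slide term, and none passed within slide 2. Each of the 11 lost its call without at least 1 replicate: NDUFV2, NDUFA2 and COX7C without NCE replicate 2 or 3, APAF1 without any NCE replicate, ATP5PF without any NCE replicate or CYGB+ replicate 3, NDUFB1 and PMPCB without any replicate but CYGB+ replicate 1, and UQCC5, UQCC1, NDUFV3 and ATP5MJ without any of the 6. The highest adjusted p among those fits was 0.0657 for NDUFV2, 0.0849 for NDUFA2, 0.109 for ATP5PF, 0.131 for NDUFB1, 0.186 for PMPCB, 0.156 for NDUFV3 and 0.152 for ATP5MJ.

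**Figure D3:**
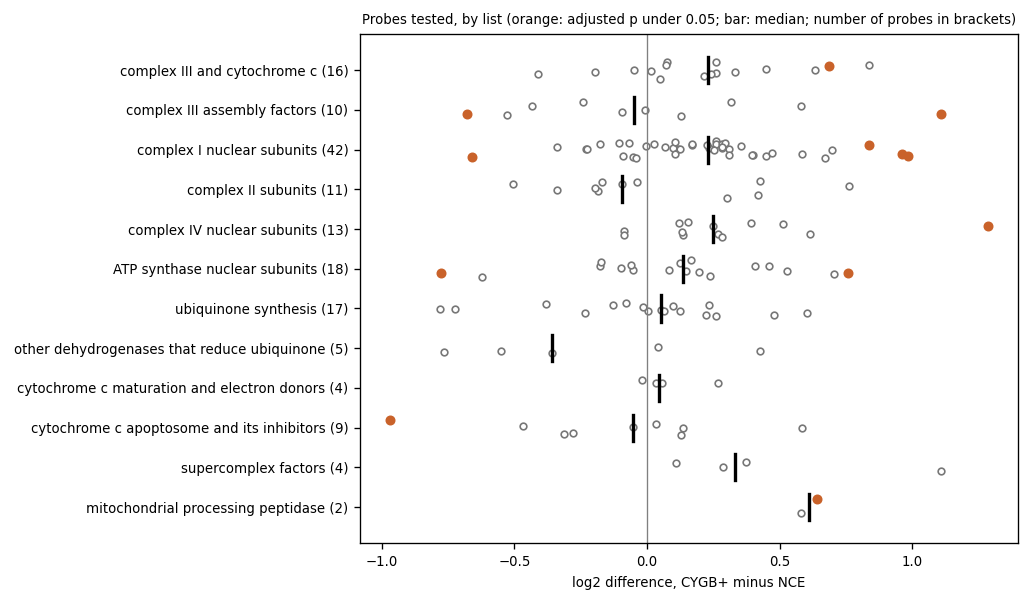
Difference of CYGB+ minus NCE (x axis, log2 scale) for the probes of complex III and cytochrome c and of each related gene list (y axis); points are probes, filled orange where the adjusted p was under 0.05, and black bars mark list medians. The complex III and cytochrome c probes run from -0.41 to 0.84 around a median of 0.23, within the span of the complex I probes.

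The mean of the 16 member probes, each centred on its own mean, was -0.11, -0.14 and -0.07 in NCE replicates 1, 2 and 3 and 0.15, 0.05 and 0.13 in CYGB+. Over these 6 samples, which share 2 slides and 2 groups, the probes of the lists with the most similar profile were those of COX7A2L (Pearson r = 0.993 at A_23_P210348), a factor that joins complexes III and IV, NDUFS4 (0.954), UQCC5 (0.947), COX7A2 (0.939) and COX7C (0.937). These probes were picked for the highest r among the 135 tested probes of the lists. COX7A2L itself had a difference of 0.37 (adjusted p = 0.154), NDUFS4 one of 0.28 (adjusted p = 0.249) and COX7A2 one of 0.28 (adjusted p = 0.263). With the slide term the COX7A2L difference at A_23_P210348 was 0.06, and within slide 2 it was 0.11. The second COX7A2L probe, A_24_P88800, had a difference of 0.29 (adjusted p = 0.269 by limma), 0.35 with the slide term and 0.39 within slide 2.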

How the data were processed

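Green-channel intensity of 15 Agilent arrays was analysed. The authors' scanner files hold Feature Extraction 10.7.3.1 output, a two-colour protocol on a human gene expression design annotated on hg19, and the deposited green processed intensity was already background-subtracted and dye-normalized against the red channel. The labels name cyanine 3 for every sample and do not say which RNA the red channel held, whereas the study's methods give the control to cyanine 5. The authors' deposited value table holds values of 15040 probes, taken here as log2. Set against the log2 scanner values, differences between arrays correlated at r = 0.780 to 0.969 with slopes of 0.505 to 0.720. Such slopes do not settle the scale, and the baseline and filter stay unknown (column medians -0.16 to 0.18). The deposited table served as an alternative, and differences from it are in its own units.

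Flagged and control spots were left out, and log2 intensities were quantile normalized, the normalisation that the methods name. Spots of a probe were averaged, then array repeats. Probes were kept where they were well above background on at least 6 of the 15 arrays. Groups of 3 biological replicates were compared with limma 3.58.1 (R 4.3.3) and Benjamini-Hochberg adjustment over 22311 probes at a threshold of 0.05. The script was checked on simulated data. No member probe was saturated on any array, and the number of biological replicates limits the precision.

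Replicate numbers come from the labels. Deviations of same-numbered NCE and CYGB+ replicates from their group means correlated at r = 0.22, 0.28 and 0.31 for replicates 1, 2 and 3. Differently numbered pairs ranged from -0.50 to 0.23, the highest being NCE replicate 2 with CYGB+ replicate 3. Such values are not independent of each other and do not settle whether replicates were paired by number. The 18 alternatives covered scaling, background correction, filter, slide, replicate block, left-out replicates, the methods' t-test and the deposited table; leaving out the arrays that stand apart and using the green signal before dye normalization were chosen after seeing the data. Normexp used the median spot signal, since the mean signal was not used here. It added an offset of 50, which shrinks log2 differences of dim probes. Members, gene lists and tests were chosen with earlier results of these data known. Named genes were all members, CYGB, the genes of the assembly and cytochrome c maturation lists, up to 3 called genes a list and direction, and the 5 list probes closest to the mean member profile. Genes were named through RefSeq records.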

Additional observations from a re-analysis of the deposited data

Results flagged for a closer look

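Single arrays that stood apart from the rest of their group, by the gap to their nearest neighbour over the range of the group, were found in 7 of 34 groups of arrays, where chance gives about 1 in 20. All came from the arrays NCE replicate 3 repeat 2 and CYGB+ replicate 1 repeat 1, which correlated least with their groups. On the NCE array the normalised log2 intensity was 12.03 for CYC1 (nearest other array 12.50), 11.14 for UQCRC1 (nearest 11.78), 13.16 for UQCRC2 (nearest 12.84) and 9.75 for UQCR10 A_33_P3379199 (nearest 10.44). On the CYGB+ array it was 12.32 for CYC1 (nearest 13.13), 13.41 for UQCRB A_23_P31671 (nearest 14.31) and 17.51 for UQCRQ (nearest 16.50). The red channel, which no comparison used, was well above background in 99.1% of the member spots, and the labels do not say which RNA it held.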

How the results depend on the processing

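Among all probes, 1835 were called; the count was 4807 with arrays as units, 609 with slide as a fixed term, 30 within the slide with both groups, 652 by the methods' t-test with Benjamini-Hochberg adjustment (5288 at an unadjusted p under 0.05), 3819 without the 2 arrays that stood apart, and 392 (without NCE replicate 2) to 1664 (without CYGB+ replicate 1) when 1 replicate was left out. The count of called members, 1, became 3 with arrays as units, 3 with probes above background on all 15 arrays, 3 without the arrays that stood apart (UQCRQ, UQCR10 and CYC1), and 0 with no filter (5 at an unadjusted p under 0.05 in limma), with slide as a term, within the slide, by the methods' t-test (5 unadjusted) and before dye normalization (3 unadjusted); it was 0 to 1 with 1 replicate left out. With the replicate number as a block it was 2, UQCR10 and UQCRQ, and 2585 probes were called in all; the block changed no other member's call. CYC1 was called under 7 of 18 alternatives, UQCRQ under 4, and UQCR10 A_24_P66001 lost its call under 14. The cause was not tested.

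The 11 calls in the related lists became 23 with normexp, 7 with no filter, 17 with probes on all arrays, 33 with arrays as units, 3 with the slide term, 0 within the slide, 25 without the arrays that stood apart and 0 to 8 with 1 replicate left out. The CYGB difference was 0.091 with 75th percentile scaling, 0.032 in the deposited table and -0.28 to 0.26 with 1 replicate left out.

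Small differences changed sign. UQCRC2 was -0.071 with the slide term and -0.024 within the slide. UQCRB A_33_P3299882 was 0.019 with normexp and -0.65 to 0.31 with 1 replicate left out. UQCR10 A_23_P68866 was -0.069 with normexp, -0.067 before dye normalization and -0.019 in the deposited table. UQCR10 A_33_P3379199 was 0.24 with the slide term, 0.14 within the slide and 0.053 without the arrays that stood apart, and -0.24 to 0.11 with 1 replicate left out. CYCS A_24_P376556 was -0.026 without the arrays that stood apart and -0.076 to 0.20 with 1 replicate left out. CYCS A_33_P3313401 was -0.046 with normexp, -0.024 before dye normalization, -0.027 without those arrays and -0.11 to 0.17 with 1 replicate left out. UQCRC1 ranged from -0.026 to 0.35 with 1 replicate left out. BCS1L was -0.015 with the slide term and -0.027 within the slide. UQCC2 was 0.014 with 75th percentile scaling, 0.023 without the arrays that stood apart and -0.19 to 0.040 with 1 replicate left out. UQCC6 was 0.15 with normexp, 0.17 before dye normalization, 0.14 in the deposited table, 0.22 with the slide term, 0.26 within the slide, 0.15 without those arrays and -0.15 to 0.19 with 1 replicate left out. SUOX was 0.0048 with normexp, 0.027 before dye normalization, 0.013 in the deposited table, 0.12 without those arrays and -0.095 to 0.10 with 1 replicate left out. CHCHD4 ranged from -0.13 to 0.24 with 1 replicate left out.

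The median member difference was 0.11 to 0.26 over all settings and above 0 for 11 to 13 probes; normexp gave the lowest, 0.11. Scalings moved the median of all probes by less than 0.02.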
